A study of Mus musculus with 17 samples.

Results

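Expression was compared between DA1-3b cells given 1 of 2 single fragments of p65/RelA and the same cells given 1 of 2 full-length forms. DA1-3b is a mouse leukaemia line that carries Bcr-Abl, an always active tyrosine kinase. The fragments were residues 1-361 (n = 3 arrays) and residues 362-549 (n = 3), which together span the protein split after position 361. The full-length forms were the point mutant D361E (n = 4), described in the series text as non-cleavable, and wild-type p65 (WT, n = 4). These 14 of the 17 arrays were chosen by their source names alone, as 6 fragment arrays against 8 full-length arrays. The remaining 3 arrays carried both fragments together and stayed outside the comparison. All cells were labelled as strain C3H eOuJ and grew in DMEM with fetal calf serum, non-essential amino acids and antibiotics. The labels give neither the promoter of the plasmids, nor the time after transfection, nor whether a line was 1 clone, nor whether the cells' own RelA was removed. The treatment text also names a void plasmid, which was not analysed here, so every difference is between 2 kinds of transfected cell. Nothing says that arrays of a group came from separate cultures. P-values therefore measure only how far the arrays of a group differ, possibly for technical reasons, and each pool holds only 2 constructs.

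RelA is the main activating subunit of NF-kB, a transcription factor held in the cytoplasm by IkB proteins until a signal frees it. Its N-terminal part holds the Rel homology domain, which binds DNA, pairs with other NF-kB subunits and is gripped by IkB. Its C-terminal part holds the transactivation domains that recruit the transcription machinery. The fragment 1-361 thus carries the DNA-binding part without the transactivation domains, and 362-549 carries the transactivation domains without the DNA-binding part. Among the genes that NF-kB switches on are its own brakes, IkB alpha and A20, along with cytokines, chemokines and adhesion molecules. In blood cells the pathway is known for its part in inflammation and in survival.

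Levels are log2 signals relative to the 75th percentile of each array, so a level of 0 is as bright as that percentile and a higher level is brighter. The percentile itself lay between 635.755 and 1023.45 signal units over the 14 arrays. Arrays of 1 group correlated across probes at 0.9675 to 0.9955, a description over probes that are not independent replicates. Changes are fragments minus full-length, the mean of both fragment groups minus the mean of both full-length groups, as estimate ± SE from limma. A gene was called at a Benjamini-Hochberg adjusted p under 0.05 over the 15048 genes tested. A called gene was said to hold when each fragment group also differed in the same direction from each full-length group, at an unadjusted limma p under 0.05 in all 4 pairings. Of the marker lists checked, 7 of 11 progenitor and leukaemia line genes were measured, with Kit and Cd34 among the 4 not tested. Their summed linear signal was 99.99 to 120.03 times the percentile on fragment arrays and 113.35 to 137.21 times on full-length arrays. No gene of the fibroblast list was among those tested. A listed gene could go untested because it was dim or because no probe carried its name, and these cases were not separated.

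The pooled comparison called 255 genes (1.69% of those tested), 121 higher (0.804%) and 134 lower (0.89%) with the fragments. Higher genes were 47.45% of the calls, a share that was 33.33% under quantile normalization and 26.06% without scaling, and 59.57% of 893 calls with a replicate block. That block put runs of consecutive title numbers into rounds, a grouping made here and not given by the labels. Of the 255, 213 had the same sign in all 4 pairings, and 91 held (0.605% of genes tested), 30 of them higher (0.199%) and 61 lower (0.405%). The median change was 0.86 among those that held higher and -1.02 among those that held lower, and it was 0.05 over all genes tested. On the stricter demand of an adjusted p under 0.05 in each of the 4 pairings, 15 genes remained (0.0997%), 5 higher and 10 lower. Fragment and full-length arrays did not overlap at all for 116 genes (0.771%), and for 60 of the 91 that held, 21 higher and 39 lower. The members of each pool also differed from each other, with 87 genes (0.578%) called for 1-361 minus 362-549 and 84 (0.558%) for D361E minus WT. At the edge of the rule, Niban1 and Col5a3 were just inside with largest pairwise p-values of 0.04803 and 0.04855, and Acod1 and C3 were just outside at 0.05062 and 0.05064.

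**Figure D1:**
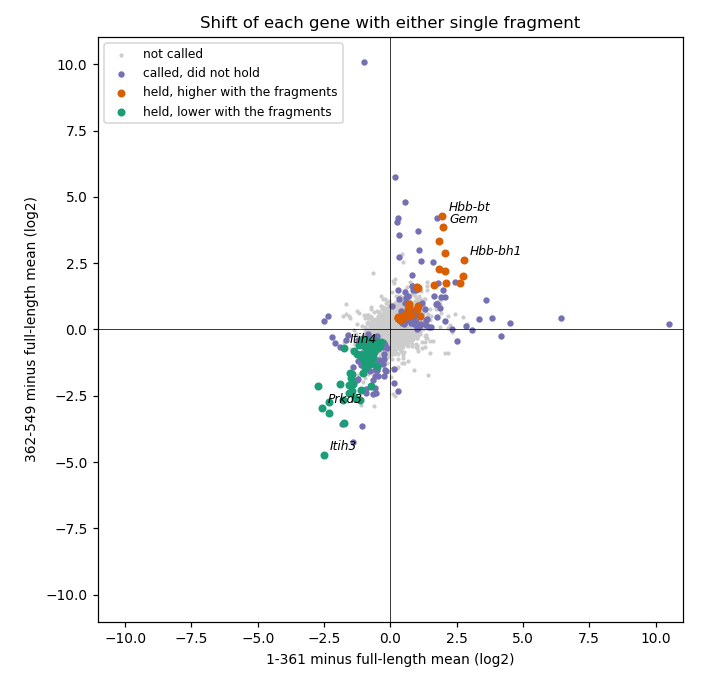
Each point is 1 of the 15048 genes tested, with the mean shift of the 1-361 arrays from the full-length mean on the horizontal axis and that of the 362-549 arrays on the vertical axis, both on the log2 scale. Genes that held (30 higher, 61 lower) lie in the upper right and lower left, while the farthest points, near the axes, were called but did not hold.

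A minority of well-known NF-kB target genes, 6 of those measured, stood lower with either fragment than with either full-length form. Of 70 listed targets 46 were measured, 0 were called higher and 11 were called lower, which is 11 of 46 against 0.89% of all genes tested. The 6 that held were the feedback inhibitors Tnfaip3 and Nfkbia, the lymphotoxins Lta and Ltb, the adhesion molecule Icam1 and the cytokine Il6. The median change over the 46 measured targets was -0.22, with 35 of them below 0, and within the 5 slides that held both pools it was between -0.45 and -0.08. The target list was put together with earlier results of these data known, so its direction is a description.

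Tnfaip3 encodes A20, a ubiquitin-editing enzyme that shuts off signalling to NF-kB. Its level was -1.98, -2.02 and -2.19 on the 1-361 arrays, -2.39, -2.48 and -1.74 on the 362-549 arrays, -1.13, -0.82, -1.0 and -0.36 on the D361E arrays and -0.27, -0.42, -0.34 and -0.09 on the WT arrays. All 6 fragment arrays lay below all 8 full-length arrays, and WT lay above D361E on most arrays. The pooled change was -1.58 ± 0.15 (adjusted p = 4.94e-05, limma), and all 4 pairings passed the stricter demand. Nfkbia encodes IkB alpha, which binds RelA and carries it out of the nucleus. Its level was 4.01, 3.73 and 4.33 with 1-361, 3.45, 3.13 and 4.07 with 362-549, 5.09, 5.11, 4.67 and 4.79 with D361E and 5.09, 4.84, 5.16 and 5.04 with WT. Again the pools did not overlap, although both full-length groups were alike here. The change of -1.19 ± 0.15 (adjusted p = 0.000776, limma) amounts to a level 2.28-fold lower with the fragments. The 60-base probes lie at chr10:18720776-18720835 for Tnfaip3 and, across a span of chr12:56590945-56591440, for Nfkbia (array coordinates on build mm9).

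Lta and Ltb encode lymphotoxin alpha and beta, TNF family ligands that together drive the lymphotoxin beta receptor. Lta was dim and stood at -4.21, -4.39 and -3.99 on 1-361 arrays, -4.42, -5.24 and -4.53 on 362-549 arrays, -3.04, -2.28, -2.58 and -3.39 on D361E arrays and -1.84, -1.73, -3.24 and -3.10 on WT arrays. The pools did not overlap, but the WT arrays split into a brighter and a dimmer pair, and only 4 of 6 fragment arrays were well above background. Lta changed by -1.81 ± 0.27 (adjusted p = 0.00304, limma). Ltb was bright, at 4.09, 4.08 and 3.97 with 1-361, 3.31, 3.45 and 3.83 with 362-549, 4.73, 4.90, 4.80 and 5.02 with D361E and 4.82, 4.92, 4.08 and 5.17 with WT. A single full-length array, WT replicate 3, fell within the range of the fragments, and the change was -1.02 ± 0.15 (adjusted p = 0.00304, limma). Both genes sit beside Tnf on chromosome 17, and Tnf itself, the founding TNF family ligand, had a change of -0.51 ± 0.16 that was not called (adjusted p = 0.149, limma). Lst1, which lies between Ltb and Aif1, had -0.12 (adjusted p = 0.649). Aif1, a calcium-binding protein of macrophages and microglia 1 gene further on, held as well at -1.06 ± 0.13 (adjusted p = 0.000384, limma), with no overlap between the pools.

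Icam1, the endothelial and leukocyte ligand for LFA-1, averaged -2.71 ± 0.40 on the fragment arrays (SD, n = 6) and -1.70 ± 0.32 on the full-length arrays (SD, n = 8). D361E replicate 1, at -2.36, lay among the fragment arrays, which ran from -3.38 to -2.19. The change was -1.01 ± 0.19 (adjusted p = 0.0133, limma). Il6, the acute-phase cytokine interleukin 6, stood at 0.80, 0.79 and 0.29 with 1-361, -0.22, 0.03 and 0.98 with 362-549, 0.59, 1.24, 1.69 and 1.72 with D361E and 1.99, 2.05, 1.86 and 1.63 with WT. The WT arrays were above every fragment array, whereas D361E replicate 1 was not. Il6 changed by -1.15 ± 0.22 (adjusted p = 0.0149, limma), and its call was lost without 362-549 replicate 2 or 1-361 replicate 3, where the adjusted p reached 0.0536. With slide as a fixed block, Tnfaip3 (adjusted p = 0.00982) and Nfkbia (0.0407) stayed called. Under that block Ltb (0.076), Lta (0.0805), Il6 (0.0938) and Icam1 (0.255) did not pass, with changes of -0.96, -1.71, -1.07 and -0.96, in a limma fit with 5 residual degrees of freedom against 10.

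**Figure D2:**
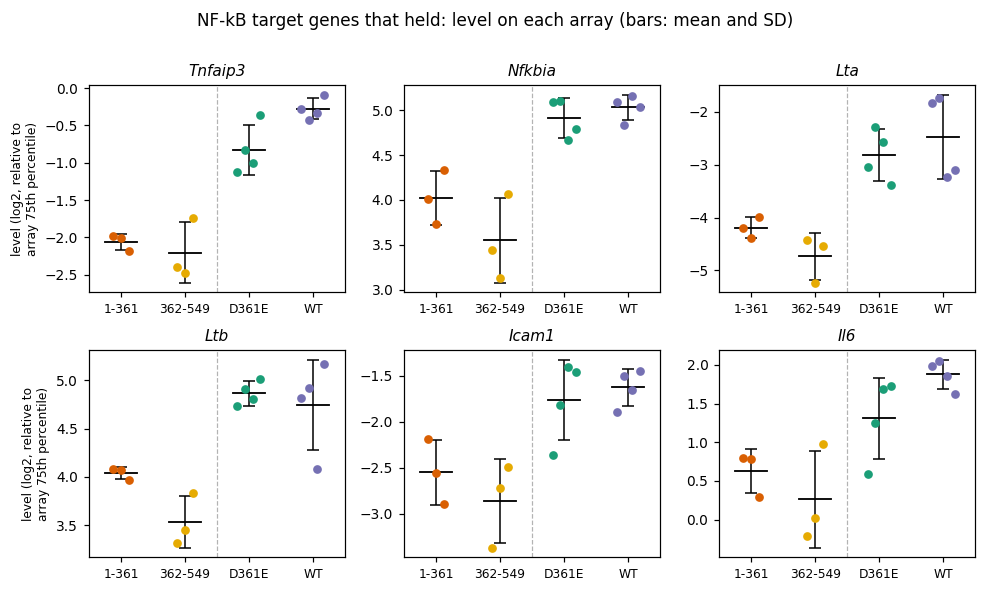
Each panel is 1 of the 6 NF-kB targets that held, with the log2 level relative to the 75th percentile on the vertical axis, a point for each array in the 4 groups, and bars for the group mean and SD. Fragment groups stand left of the dashed line, and in every panel both of their means lie below both full-length means.

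The other 5 called targets did not hold in all 4 pairings. Acod1, which makes the antimicrobial metabolite itaconate, had a measured pooled change of -2.82 ± 0.15 (adjusted p = 2.85e-07, limma). Its levels were -3.49, -3.63 and -3.84 on 1-361 arrays and -6.20, -6.51 and -6.73 on 362-549 arrays, against -1.69, -1.13, -0.93 and -1.48 on D361E arrays and -3.19, -2.94, -3.62 and -3.0 on WT arrays. The 362-549 arrays were below all others and none of the 3 was well above background, which makes 362-549 at least 10.1-fold lower than D361E and at least 2.76-fold lower than WT, while the 1-361 arrays overlapped the WT arrays and differed from them by -0.46. Ccl3, a chemokine for monocytes, was likewise not well above background on any 362-549 array and had a measured change of -1.58 ± 0.20 (adjusted p = 0.00071, limma), yet 1-361 minus WT was 0.30 and the D361E arrays alone were high. Ccl5, a chemokine for T cells, had -1.02 ± 0.17 (adjusted p = 0.00501, limma), with shifts of -1.63 and -1.69 for 1-361 against WT and D361E but of -0.36 and -0.42 for 362-549. Olr1, a receptor for oxidised lipoprotein, had -0.86 (adjusted p = 0.0342). Traf1, a signalling adaptor of TNF receptors, had -0.69 (adjusted p = 0.0425), and its call was lost in 10 of the 14 fits that left out 1 array, all except those without 362-549 replicate 3, D361E replicate 1, D361E replicate 4 and WT replicate 4. Many familiar targets were not called in either direction. These included Birc3, an inhibitor of apoptosis (0.06), Bcl2l1, which encodes the survival protein Bcl-xL (0.11), Nfkb2, the p100 precursor (-0.05), and Relb, the partner of p52 (-0.46, adjusted p = 0.169).

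**Figure D3:**
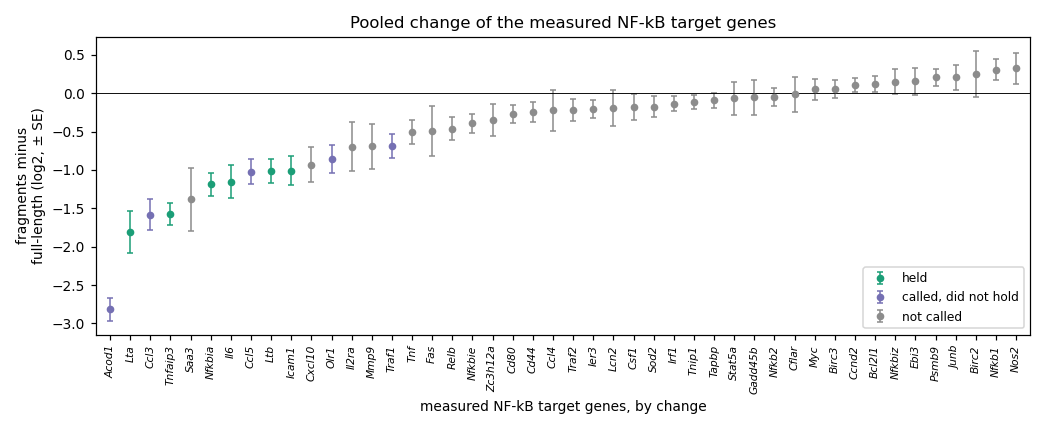
Each point is 1 of the 46 measured NF-kB target genes, ordered by its fragments minus full-length change on the log2 scale, with bars of 1 SE. The 6 genes that held and the 5 called genes that did not hold are all on the side below 0, and 11 of the 46 lie above 0.

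To set these shifts beside the DNA they start from, the 250 bases before each gene's start in RefSeq (build GRCm38.p6) were searched on both strands for the kB consensus motif of 10 letters, GGGRNNYYCC. Here R is A or G, Y is C or T, and N is any base. Only full matches counted, so a stretch 1 letter off, such as tggaaattcc in the Icam1 window, was left out. The motif was in 43.2% of the measured targets that had a promoter in the table (16 of 37), in 10.4% of tested genes with an ordinary symbol (941 of 9048) and in 7.25% of all promoters of the table. A gene counted when any of its starts had the motif. The 7.25% counts single promoters and is not on the same footing. It was in 4 of the 6 targets that held, namely Tnfaip3, Nfkbia, Il6 and Ltb, and not in these windows of Lta and Icam1. Among all genes that held lower, 7 of 45 with a promoter in the table held it (15.6%). Only 14 of the 24 ordinary symbols that held higher had a promoter in the table, and 0 of these 14 held the motif. So few promoters give no precise share. The other held falls with the motif were Hpn, Fank1 and Slc6a12, and Slc6a12 has further starts whose windows hold none. With slide as a fixed block the calls of Fank1 and Slc6a12 were lost (adjusted p = 0.122 and 0.285, limma). The 4 target promoters are shown because they are the held targets with the motif, and that of Hpn, which encodes the membrane protease hepsin, because Hpn met the stricter demand. Tnfaip3 and Hpn have a further start in the table whose window holds no motif, and the start with the motif is shown. Each reads 5′ to 3′ toward the start of the gene, with capitals marking the motif. A match is a description of the letters, not of binding. Tnfaip3 has its motifs 125 and 12 bases before the start, Nfkbia 29, Il6 44 and Ltb 87, and in Hpn overlapping matches begin 239 and 238 bases before it.
Tnfaip3, minus strand of chr10:19015411-19015660: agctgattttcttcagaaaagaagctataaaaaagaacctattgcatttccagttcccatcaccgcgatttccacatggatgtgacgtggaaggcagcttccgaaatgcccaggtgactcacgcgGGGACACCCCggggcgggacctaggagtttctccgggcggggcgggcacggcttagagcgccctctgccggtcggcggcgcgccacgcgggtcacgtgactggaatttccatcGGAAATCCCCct
Nfkbia, minus strand of chr12:55492648-55492897: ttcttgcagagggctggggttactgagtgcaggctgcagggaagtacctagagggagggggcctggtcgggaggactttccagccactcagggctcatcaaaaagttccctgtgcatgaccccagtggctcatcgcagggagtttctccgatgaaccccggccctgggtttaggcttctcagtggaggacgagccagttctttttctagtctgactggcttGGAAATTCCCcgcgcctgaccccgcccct
Il6, plus strand of chr5:30012864-30013113: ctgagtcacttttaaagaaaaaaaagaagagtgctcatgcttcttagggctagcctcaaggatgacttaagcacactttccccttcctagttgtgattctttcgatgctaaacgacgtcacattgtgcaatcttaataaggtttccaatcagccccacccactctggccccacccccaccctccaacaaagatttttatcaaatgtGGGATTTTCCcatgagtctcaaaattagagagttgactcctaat
Ltb, plus strand of chr17:35194257-35194506: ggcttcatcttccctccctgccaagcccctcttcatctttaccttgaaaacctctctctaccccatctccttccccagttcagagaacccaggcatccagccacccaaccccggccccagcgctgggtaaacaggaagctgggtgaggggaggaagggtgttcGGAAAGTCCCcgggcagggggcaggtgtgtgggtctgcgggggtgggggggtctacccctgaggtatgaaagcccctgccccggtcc
Hpn, minus strand of chr7:31110998-31111247: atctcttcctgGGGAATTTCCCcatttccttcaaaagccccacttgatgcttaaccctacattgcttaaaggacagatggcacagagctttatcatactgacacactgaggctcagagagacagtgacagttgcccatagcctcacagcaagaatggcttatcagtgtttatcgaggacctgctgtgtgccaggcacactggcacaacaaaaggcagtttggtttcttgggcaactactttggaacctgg

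Of the 47 measured components of the NF-kB pathway, from receptors' adaptors to the Rel proteins, 0 were called higher and 2 lower, Tnfaip3 and Nfkbia, and the median change was -0.06. Of 19 measured inhibitors and feedback genes the same 2 were called, and the other 17 were not. Among these, Nfkbie, which encodes IkB epsilon, had -0.39 (adjusted p = 0.143), and Cyld, a deubiquitinase that restrains the pathway, had -0.14 (adjusted p = 0.727). Rela, the gene carried by the plasmids, stood at 4.73, 4.82 and 4.80 on 1-361 arrays, 4.80, 4.86 and 4.82 on 362-549 arrays, 4.62, 4.79, 4.66 and 4.88 on D361E arrays and 4.75, 4.68, 4.84 and 4.85 on WT arrays. The 4 groups overlapped, with a difference of 0.05 ± 0.08 (adjusted p = 0.809, limma) whose sign turned under quantile normalization (-0.01) and without scaling (-0.17). Its probe lies at chr19:5648070-5648129 (mm9). Whether plasmid transcripts carry that sequence is not given in the sources used here, so the level of Rela is no check of the transfections.

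In the TNF family, 27 of 43 ligands, receptors and adaptors were measured, 0 were called higher and 3 lower (Lta, Ltb and Traf1), with a median of -0.19. Receptors showed no call: Tnfrsf1a had -0.19 (adjusted p = 0.558) and Tnfrsf1b, the other TNF receptor, had -0.40 (adjusted p = 0.189). Nsmaf, which encodes FAN, an adaptor that couples the first TNF receptor to neutral sphingomyelinase, held in the other direction. Its level was 3.87, 3.76 and 3.83 with 1-361, 3.59, 3.60 and 3.58 with 362-549, 2.78, 2.86, 2.93 and 2.91 with D361E and 3.24, 3.38, 3.22 and 2.95 with WT. The pools did not overlap, and the change was 0.67 ± 0.08 (adjusted p = 0.000585, limma). Its call was not kept without scaling, under normexp background correction, with the mean of all kept probes, or with slide as a fixed block (adjusted p = 0.0768). Of 14 measured chemokines 3 were called lower (Ccl3, Ccl5 and Ccl6) and 0 held, and the call of Ccl6 was lost in 10 of the 14 fits that left out 1 array. Il27ra, a receptor chain for interleukin 27, held lower at -0.53 (adjusted p = 0.00519, limma).

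A number of the held falls were in genes for plasma and acute-phase proteins. Of 13 measured proteases and protease inhibitors of plasma, 4 were called lower and all 4 held, 1 was called higher, and the median was -0.63 (-0.25 over those bright on all 14 arrays). Hp and Itih1 among them were kept for testing only through D361E, the group where they read highest, which favours a fall. Itih3 encodes a heavy chain of the inter-alpha-trypsin inhibitors, which bind hyaluronan in the matrix. It stood at -4.30, -4.30 and -3.80 on 1-361 arrays, -5.83, -6.62 and -6.54 on 362-549 arrays, -3.0, -2.53, -3.06 and -3.11 on D361E arrays and -0.37, -0.47, -0.34 and -0.03 on WT arrays. The 4 groups fell into 4 separate steps, WT highest and 362-549 lowest, where none of the 3 arrays was well above background. The pooled change of -3.62 ± 0.15 (adjusted p = 3.03e-08, limma) thus averages over large differences inside each pool and rests on measured values that in 362-549 are at background. D361E minus WT was -2.62. Against 362-549, where only a bound can be given, Itih3 was at least 1.43-fold higher with 1-361, and 362-549 was at least 3.31-fold lower than D361E and at least 20.3-fold lower than WT.

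Its neighbours on chromosome 14 moved the same way. Itih4, a related heavy chain made in the acute phase, stood at -1.99, -1.94 and -1.87 with 1-361, -0.69, -0.95 and -0.96 with 362-549, -0.09, 0.03, 0.11 and -0.31 with D361E and -0.33, -0.40, -0.33 and -0.17 with WT. Here 1-361 was the lowest group and the full-length groups were close, with a pooled change of -1.21 ± 0.09 (adjusted p = 8.44e-06, limma). Itih1, a further heavy chain, was not well above background on any of the 6 fragment arrays. It was at least 2.29-fold lower there, with measured means of -5.03 ± 0.54 on fragment arrays (SD, n = 6) and -3.46 ± 0.68 on full-length arrays (SD, n = 8; adjusted p = 0.00674, limma). The tested genes on either side were not called: Nek4, a kinase of the cell cycle, had -0.08 (adjusted p = 0.863), and Stimate, an endoplasmic reticulum protein, had 0.08 (adjusted p = 0.801). The probes lie at chr14:31714970-31715029, chr14:31721835-31721894 and chr14:31742375-31742434 (mm9).

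Hp encodes haptoglobin, which captures free haemoglobin. It stood at -5.05, -6.16 and -5.77 on 1-361 arrays, -5.44, -6.17 and -6.56 on 362-549 arrays, -2.73, -1.92, -2.78 and -1.60 on D361E arrays and -4.44, -4.22, -5.04 and -3.98 on WT arrays. No fragment array was well above background, and D361E lay above WT by 2.16, so the fall was larger against D361E. Hp was at least 2.59-fold lower with the fragments (adjusted p = 0.000176, limma), with measured means of -5.86 ± 0.55 on fragment arrays (SD, n = 6) and -3.34 ± 1.25 on full-length arrays (SD, n = 8). C1s2, a complement serine protease gene, was likewise dim on all 6 fragment arrays and at least 2.17-fold lower there, with measured means of -5.45 ± 0.88 (SD, n = 6) and, on full-length arrays, -3.55 ± 0.65 (SD, n = 8; adjusted p = 0.000267, limma). Hpn, the gene of hepsin, stood at -2.57, -2.91 and -1.84 with 1-361, -3.35, -2.77 and -3.81 with 362-549, -0.80, -0.91, -1.25 and -0.62 with D361E and -0.97, -1.0, -1.35 and -0.97 with WT. Both full-length groups were near -1 and every fragment array was lower, a change of -1.89 ± 0.19 (adjusted p = 0.00013, limma) that met the stricter demand. C3, the central complement component, was called higher at 1.57 (adjusted p = 0.00876, limma) and just missed the rule for holding.

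Surface receptors of myeloid cells made up a further group of falls. Pilra is an inhibitory and Pilrb1 an activating paired receptor that share ligands, and the 2 genes neighbour each other on chromosome 5. Pilra stood at -2.84, -3.02 and -3.33 on 1-361 arrays, -4.38, -4.57 and -2.73 on 362-549 arrays, -0.42, 0.03, -0.29 and -0.22 on D361E arrays and -2.07, -1.39, -0.89 and -0.60 on WT arrays. The pools did not overlap, and the change was -2.75 ± 0.29 (adjusted p = 0.000176, limma), with all 3 of its kept probes lower and 4 of 6 fragment arrays well above background. Pilrb1 was well above background on only 1 of 6 fragment arrays, so it was kept for testing only through the full-length groups, which favours a fall. Its measured change was -2.64 ± 0.36 (adjusted p = 0.00133, limma; 0.0653 with slide as a fixed block), and as a bound 362-549 was at least 4.2-fold lower than D361E and at least 1.77-fold lower than WT. WT replicates 1 and 2, at -4.71 and -4.39, lay inside the fragment range of -6.90 to -4.23. Pilrb2, in the same cluster, had -1.75 and was not called (adjusted p = 0.0919). These are close paralogues, and hybridisation of 1 transcript to another's probe was not tested. In the whole list of paired and Fc family receptors 27 of 40 were measured, 8 were called lower, 1 was called higher, and only Pilra and Pilrb1 held, with a median of -0.50 (-0.10 over those bright on all 14 arrays). The 1 called higher was Fcer1g, the shared signalling chain of Fc receptors, at 1.05 ± 0.10 (adjusted p = 6.68e-05, limma). Its 1-361 arrays stood at 3.72, 3.57 and 3.49, while its 362-549 arrays stood at 0.33, 0.87 and 0.78 and all full-length arrays between 0.83 and 1.17. The rise was thus in 1-361 alone.

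The ATP-gated channels P2rx7, which opens the inflammasome pathway, and P2rx4 are neighbours on chromosome 5, and both held lower. P2rx7 stood at -2.14, -3.08 and -2.05 with 1-361, -2.58, -2.22 and -2.92 with 362-549, -0.40, -0.08, -0.54 and 0.05 with D361E and -0.56, -0.44, -1.81 and -0.43 with WT. WT replicate 3 was well below the other WT arrays but still above every fragment array. The change was -1.97 ± 0.24 for P2rx7 and -0.83 ± 0.10 for P2rx4 (adjusted p = 0.000585 for each, limma), and with slide as a fixed block the adjusted p-values were 0.055 and 0.0641. The other kept probe of each gene had a smaller fall, -0.79 for P2rx7 and -0.61 for P2rx4. G protein-coupled receptors among the falls were Ffar2, for short-chain fatty acids, at -1.07 ± 0.11 and Gpr34, for lysophosphatidylserine, at -1.01 ± 0.12. Cd200r2, of the Cd200 receptor family, fell by 1.35 ± 0.12 on the log2 scale. These 3 met the stricter demand with no overlap between the pools, and their adjusted p-values in limma were 0.000149, 0.00032 and 2.76e-05.

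**Figure D4:**
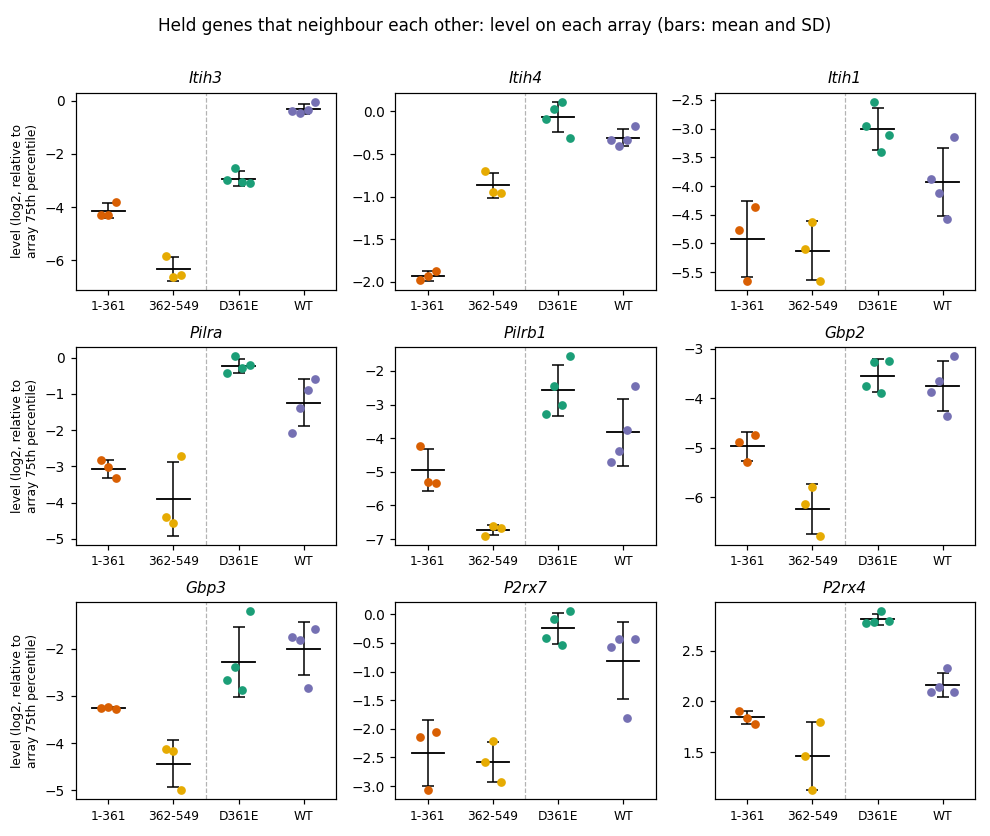
Each panel is a held gene that has another held gene close by on its chromosome (Itih4, Itih3 and Itih1 on chromosome 14, Pilra and Pilrb1, P2rx7 and P2rx4 on 5, Gbp3 and Gbp2 on 3), with the log2 level relative to the 75th percentile on the vertical axis, a point per array and bars for the group mean and SD. Both fragment groups, left of the dashed line, have lower means than both full-length groups in all 9 panels.

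Tmem273, a small transmembrane protein gene on chromosome 14, stood at -3.34, -3.45 and -3.44 with 1-361, -4.59, -4.01 and -4.26 with 362-549, -1.30, -0.93, -1.19 and -1.54 with D361E and -2.62, -1.92, -2.12 and -1.42 with WT. The order of the groups was 362-549, 1-361, WT and D361E from low to high, and the change was -2.22 ± 0.17 (adjusted p = 9.24e-06, limma). Pkd2l1, a cation channel of the polycystin family, averaged -0.16 ± 0.47 on fragment arrays (SD, n = 6) and 1.82 ± 0.92 on full-length arrays (SD, n = 8). Its change was -1.99 ± 0.23 (adjusted p = 0.000304, limma), again with D361E above WT. Psen2 encodes presenilin 2, a catalytic subunit of gamma-secretase, and was the brightest of the large falls. It stood at 2.83, 2.27 and 2.95 with 1-361, 2.28, 2.23 and 1.59 with 362-549, 4.20, 4.37, 3.92 and 4.59 with D361E and 4.01, 3.91, 3.40 and 4.23 with WT. The full-length groups were alike and every fragment array was lower, a 3.3-fold difference (adjusted p = 0.00013, limma).

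Kinases were found on both sides. Prkd3, of the protein kinase D family, stood at -6.66, -6.57 and -6.07 on 1-361 arrays, -6.90, -6.58 and -6.93 on 362-549 arrays, -4.04, -3.44, -3.84 and -3.26 on D361E arrays and -4.22, -3.99, -4.56 and -3.46 on WT arrays. No fragment array was well above background, so Prkd3 was at least 1.81-fold lower there, with measured means of -6.62 ± 0.31 (SD, n = 6) and, on full-length arrays, -3.85 ± 0.44 (SD, n = 8; adjusted p = 3.00e-06, limma). Pik3r5, the p101 regulatory subunit of phosphoinositide 3-kinase gamma, held lower at -0.95 ± 0.11 (adjusted p = 0.00032, limma). The related tyrosine kinases Fes and Fer moved in opposite directions. Fes averaged -0.15 ± 0.28 on fragment arrays (SD, n = 6) and 0.89 ± 0.38 on full-length arrays (SD, n = 8), while Fer averaged -3.93 ± 0.52 on fragment arrays (SD, n = 6) and -5.85 ± 0.94 on full-length arrays (SD, n = 8). The changes were -1.04 ± 0.17 for Fes (adjusted p = 0.00669; 0.151 with slide as a fixed block) and 1.92 ± 0.26 for Fer (adjusted p = 0.00126, limma). Fer was well above background on 6 of 6 fragment arrays and on 2 of 8 full-length arrays. It was thus kept for testing only through the fragment groups, which favours a rise. Against WT, dim on all its arrays, Fer was at least 2.49-fold higher with 1-361 and at least 1.93-fold higher with 362-549. Likewise, of the small RGK family GTPases that curb calcium channels, Gem held higher at 2.93 and Rrad held lower at -0.53. Single arrays mattered to both calls: that of Gem was lost in 9 and that of Rrad in 12 of the 14 fits that left out 1 array, with adjusted p-values up to 0.0798 and 0.127. Gem kept its call without 1-361 replicate 3, 362-549 replicate 1, D361E replicate 1, D361E replicate 3 or WT replicate 3, and Rrad without D361E replicate 3 or WT replicate 3.

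Among interferon-stimulated genes 49 of 62 were measured, 0 were called higher and 2 lower, and the median was -0.03. Both were guanylate-binding GTPases that act against intracellular microbes, and they lie close together on chromosome 3. Gbp3 stood at -3.25, -3.24 and -3.28 with 1-361, -4.13, -4.18 and -5.00 with 362-549, -2.66, -2.39, -2.88 and -1.21 with D361E and -1.76, -1.82, -2.84 and -1.58 with WT. Its pools did not overlap, and the change was -1.70 ± 0.27 (adjusted p = 0.00487, limma; 0.0686 with slide as a fixed block). Gbp2 was dim on all 6 fragment arrays and at least 2.08-fold lower there, with measured means of -5.61 ± 0.78 on fragment arrays (SD, n = 6) and -3.65 ± 0.41 on full-length arrays (SD, n = 8; adjusted p = 0.000203, limma). Gbp7, in the same cluster, had -0.03 (adjusted p = 0.911), and Gbp5 had 0.52 (adjusted p = 0.495).

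Beta-globin genes were among the held rises. Hbb-bt encodes an adult beta chain of haemoglobin, and stood at 2.53, 2.34 and 2.81 on 1-361 arrays, 4.47, 4.97 and 5.16 on 362-549 arrays, 1.99, 2.10, 2.33 and 0.71 on D361E arrays and -0.92, -0.41, -0.23 and -0.82 on WT arrays. The groups again formed steps, with 362-549 highest and WT lowest, and no fragment array overlapped a full-length array. The pooled change was 3.12 ± 0.24 (adjusted p = 8.44e-06, limma), but D361E minus WT was itself 2.38 and 1-361 minus 362-549 was -2.31. Hbb-bh1, an embryonic beta-like chain, stood at 0.46, -0.18 and 0.41 with 1-361, -0.39, 0.02 and 0.59 with 362-549, -1.60, -1.53, -1.14 and -2.57 with D361E and -3.53, -3.36, -2.87 and -3.78 with WT. Here the fragments were alike, WT was lowest, and the change was 2.70 ± 0.24 (adjusted p = 2.91e-05, limma). Hbb-b2, Hbb-bs and Hbb-y were called higher too (2.97, 2.38 and 1.44) without holding. The globin genes are near-identical in part, and hybridisation across them was not tested.

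Of the 16 erythroid markers 11 were measured, 5 were called higher, all of them beta-globins, and 0 were called lower, with a median of 1.03. The alpha-globins Hba-a2 and Hba-a1 had changes of 1.00 and 1.03 that were not called (adjusted p = 0.0832 and 0.157). Klf1, the erythroid master regulator, had -0.23, and Epor, the erythropoietin receptor, had -0.16, neither of them called. Alas2 and Slc4a1, which mark red cell precursors, were not among the genes tested. The summed linear signal of the measured erythroid markers was 144.59 to 262.80 times the percentile on fragment arrays and 33.53 to 199.81 times on full-length arrays, and the part of such cells in the globin shifts was not tested. In bulk RNA a change in the number of such cells and a change of RNA per cell cannot be told apart.

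Igsf5, a junctional adhesion molecule, stood at 0.24, -0.11 and 0.02 with 1-361, -0.78, -0.72 and -0.90 with 362-549, -2.57, -2.51, -2.84 and -3.23 with D361E and -2.62, -2.19, -2.74 and -1.81 with WT. Every fragment array was above every full-length array, with 1-361 the highest group, and the change was 2.19 ± 0.16 (adjusted p = 7.77e-06, limma). F13a1 encodes the A chain of coagulation factor XIII, an enzyme that cross-links fibrin and is also found in monocytes. Its level was -1.27, -1.44 and -1.46 with 1-361, -1.15, -0.70 and -0.97 with 362-549, -3.69, -3.72, -3.77 and -3.69 with D361E and -2.82, -2.60, -3.05 and -2.43 with WT. D361E was lower than WT by 0.99, and both were below all fragment arrays. F13a1 changed by 2.05 ± 0.11 (adjusted p = 2.85e-07, limma), the smallest adjusted p among the held rises. B3gnt5, which starts the lacto-series chains of glycosphingolipids, averaged -2.83 ± 0.48 on fragment arrays (SD, n = 6) and -5.22 ± 0.38 on full-length arrays (SD, n = 8). It was well above background on all 6 fragment arrays and on 2 of 8 full-length arrays, with a measured change of 2.38 ± 0.18 (adjusted p = 8.23e-06, limma). No full-length group had B3gnt5 well above background on all its arrays, so it was kept only through the fragments, which favours a rise. Against D361E, dim on all its arrays, B3gnt5 was at least 6.55-fold higher with 1-361 and at least 3.89-fold higher with 362-549. Ryk, a receptor-like kinase that binds Wnt proteins, stood at -2.39, -1.59 and -1.30 with 1-361 and -1.50, -1.19 and -0.10 with 362-549, against -4.28, -4.17, -3.67 and -5.27 with D361E and -3.74, -3.14, -2.60 and -3.59 with WT. The fragment groups were both above the full-length arrays, with a change of 2.46 ± 0.30 (adjusted p = 0.00053, limma).

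**Figure D5:**
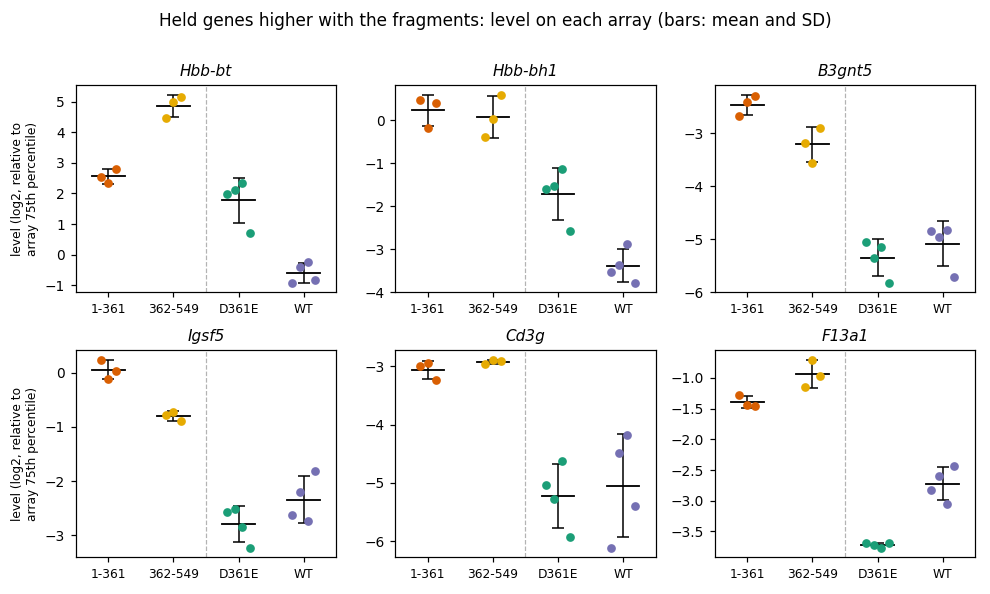
Each panel is 1 of 6 held genes that were higher with the fragments, with the log2 level relative to the 75th percentile on the vertical axis, a point for each array and bars for the group mean and SD. Fragment groups stand left of the dashed line, and no fragment array is as low as any full-length array in the 6 panels.

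A few rises were in genes of other blood lineages. Cd3g, a chain of the T cell receptor complex, stood between -3.23 and -2.89 on the 6 fragment arrays and between -6.12 and -4.17 on the 8 full-length arrays. Its measured change was 2.14 ± 0.28 (adjusted p = 0.000915, limma), and 3 of 8 full-length arrays were well above background. Cd3g was thus kept for testing only through a fragment group, which favours a rise. Of 15 T cell markers 8 were measured, 2 were called higher (Cd3g and Cd3d, another chain of the complex, at 0.36) and 0 lower. Cd3e had 0.14 and Lck, the T cell kinase, had -0.32, both not called, and Trac, Cd247 and Zap70 were not among the genes tested. The summed signal of the T cell markers was 11.69 to 14.99 times the percentile on fragment arrays and 11.04 to 15.62 times on full-length arrays. Gzmc, a granzyme of cytotoxic cells, stood at 5.30, 5.99 and 4.87 with 1-361, 4.91, 5.43 and 5.97 with 362-549, 4.43, 4.63, 4.93 and 4.17 with D361E and 2.08, 2.77, 3.71 and 3.24 with WT. D361E replicate 3 reached the fragment range, and the change was 1.66 ± 0.27 (adjusted p = 0.00487, limma; 0.137 with slide as a fixed block). Of 11 cytotoxic markers 4 were measured, with Gzmb at 1.12 (adjusted p = 0.153) and Prf1, which encodes perforin, at 0.33 (adjusted p = 0.46). Their summed signal, with Gzmc in it, was 48.93 to 154.55 times the percentile on fragment arrays and 13.07 to 66.67 times on full-length arrays, and the part of other cells in these rises was not tested.

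Smaller held rises with no overlap between the pools were in Sobp, an inner ear and brain protein gene (0.82 ± 0.15, adjusted p = 0.0104, limma), Fgf11, of the intracellular fibroblast growth factors (0.90), and Septin12, a cytoskeletal GTPase of sperm (0.76). The calls of Fgf11 and Septin12 were lost in 9 and 11 of the 14 fits that left out 1 array. Fgf11 kept its call without D361E replicate 3, D361E replicate 4, 1-361 replicate 1, WT replicate 2 or WT replicate 3. Septin12 kept its call without D361E replicate 1, D361E replicate 4 or WT replicate 3. In metabolism, Eno1b, an enolase copy, held at 0.56 ± 0.11 (adjusted p = 0.0162, limma), and Eno1, the glycolytic enolase, was called at 0.63 ± 0.11 (adjusted p = 0.00987, limma) without holding. Neither was called under quantile normalization or without scaling, and Eno1b was not called without 1-361 replicate 1, 1-361 replicate 2 or 362-549 replicate 3 (adjusted p up to 0.0536). Levels of Eno1 and Eno1b were close on every array, and hybridisation of 1 transcript to both probes was not tested. Of 30 measured glycolysis and hypoxia genes 28 were above 0 with a median of 0.42, but only Eno1 was called higher and Hif1a lower, and within slides the median ran from -0.34 to 1.15.

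Of the called genes 164 did not hold. Both pairings of 1-361 had a p under 0.05 for 75 of these and both pairings of 362-549 for 76, while 47 were called for 1-361 minus 362-549 and 35 for D361E minus WT. The 6 called stefin genes, small cathepsin inhibitors, were such a case inside the full-length pool. Stfa1 stood at -1.86, -2.17 and -2.16 with 1-361 and -2.31, -1.92 and -2.08 with 362-549, against -2.89, -2.57, -2.58 and -1.71 with D361E and -5.87, -5.08, -5.72 and -4.45 with WT. The fragments and D361E were close and WT alone was low, so the pooled change of 1.77 ± 0.23 (adjusted p = 0.000907, limma) came with a shift of 0.38 for 1-361 against D361E. Over the 10 measured stefin and cystatin genes the median was 2.75 for 1-361 minus WT and 2.19 for 362-549 minus WT, and it was 0.40 and -0.17 for the same fragments minus D361E. Hif1a, the hypoxia-inducible factor, was the mirror case, with D361E alone high (1.0, 0.79, 0.88 and 0.85) and all other groups between -0.62 and -0.10.

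Lists with 0 called genes in either direction were MHC class I presentation (27 measured, median 0.09), the unfolded protein response (24, 0.06), cholesterol and fatty acid synthesis (33, 0.15), cell cycle genes (46, -0.04), p53 targets (27, -0.04), apoptosis genes (32, -0.03), STAT5 and Bcr-Abl output genes (29, 0.05) and immediate early genes (21, 0.14). Over all genes, 2138 had an unadjusted limma p under 0.05. The integrated stress response list had 39 measured genes, 2 called lower and 0 held. Those were Nupr1, a stress-induced chromatin protein, and Atf5, a transcription factor, and their calls were lost in 13 and 8 of the 14 fits that left out 1 array.

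How well each held call stood up varied. Of the 79 held genes with an ordinary symbol, 53 stayed called without each of the 14 arrays in turn, and 27 stayed called with slide as a fixed block. The 20 that stayed called in every fit that measured them were Hbb-bt, Hbb-bh1, Ryk, Igsf5 and F13a1 among the rises, and Itih3, Itih4, Pilra, Tmem273, Pkd2l1, Hpn, Psen2, Tnfaip3, Nfkbia, Cd200r2, Ffar2, Aif1, Gpr34, Pik3r5 and Niban1 among the falls. None of the 79 turned its sign in any of these fits. Under normexp background correction the calls of the dim genes Prkd3, Itih1, Hp, C1s2, Gbp2, Gbp3, Pilrb1, B3gnt5, Fer, Cd3g, Gem, Fgf11, Septin12 and Rrad were lost. So were those of Icam1, Il27ra, Sobp, Nsmaf, Eno1b, Col5a3, Fank1 and Slc6a12. With slide as a fixed block the calls of Itih1, Il27ra, Sobp, Fgf11, Septin12, Gem, Rrad, Eno1b and Col5a3 were lost too, beside those given above with that block's adjusted p. The remaining 12 held genes had only clone, transcript or predicted names, 6 of them with changes under 0.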

How the data were processed

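Total RNA of 17 samples was labelled with Cy3 and hybridised to 1-colour Agilent mouse arrays (design 026655), per the file headers, and 14 of these were compared here. The authors deposited scanner output with background-corrected signal intensity for each spot, made with Feature Extraction 10.7.3.1 and protocol GE1_107_Sep09, per the file headers. Of 44397 spots an array, 43020 were not controls, giving 39429 probes. Groups came from the source names, and arrays are numbered in accession order, so the numbers pair nothing. The deposited series table held the same intensity values.

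From the deposited intensity, log2 values minus each array's 75th percentile were computed. A probe was kept where some group of the 4 had it well above background on all its arrays (19480 kept), and the brightest probe stood for its gene. Where no group of 1 pool had a gene well above background on all its arrays, the gene was kept only through the other pool. The filter then favoured a higher level in that other pool. Names came from RefSeq accessions (GRCm38.p6, used for names and promoters only) for 27592 probes, and 11837 kept the file's name. Where a whole pool, or a group in a pairing printed as a bound, was dim on all its arrays, the fold is a lower bound against the dimmest probes well above background. Pooled changes of genes dim in 1 group only are measured values. A limma model (3.58.1, R 4.3.3) with a mean for each of the 4 groups gave the pooled contrast and the 4 pairings, adjusted by Benjamini-Hochberg over 15048 genes.

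On data simulated for the pooled contrast, 160 of 200 changed genes and 8 unchanged genes were called. Each simulated array was independent, and both fragments had the same shift. The measured arrays of a round deviated together and the constructs of a pool differed, so these counts need not carry over. All 14 arrays were scanned on 1 day on 6 slides, 5 of which held both pools. Background, scaling, filter, probe choice, slide, replicate and leave-one-out alternatives were fitted. Genes named in the text were Rela, the 12 largest held rises and falls with ordinary symbols and no overlap, up to 4 called members of each list, and others needed for context, which were chosen after their values were seen. The members and lists were chosen with earlier results of these data known. The number of arrays limits the precision, and a few items are not reported here.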

Additional observations from a re-analysis of the deposited data

Results flagged for a closer look

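Of 108 sets of 4 arrays examined for a single array standing apart from the rest of its group, 5 did, and chance gives about 1 in 20. B3gnt5 was -5.7181 on WT replicate 4, against -4.96 to -4.82 on the other WT arrays, and Septin12 was -3.8216 on the same array, against -3.03 to -2.98. P2rx7 was -1.8131 on WT replicate 3, against -0.56 to -0.43 on the other WT arrays, and Hpn was -1.3491 there, against -0.999 to -0.967. Fcer1g was 1.1727 on D361E replicate 4, with the other D361E arrays at 1.12 to 1.13.

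Several held genes also differed within a pool, by the adjusted p of limma's own test of that difference. For 1-361 minus 362-549 this was so for Hbb-bt (-2.3105, adjusted p = 0.00765), Itih3 (a measured 2.1945, adjusted p = 0.000315, with 362-549 not well above background on any array and 1-361 at least 1.43-fold higher) and Itih4 (-1.0639, adjusted p = 0.00183). For D361E minus WT it was so for Hbb-bt (2.3787, adjusted p = 0.00206), Hbb-bh1 (1.6753, adjusted p = 0.0286), F13a1 (-0.99453, adjusted p = 0.00473), Itih3 (-2.6197, adjusted p = 3.25e-05) and Hp (2.1627, adjusted p = 0.0118). The size of a pooled change in these genes is therefore a mean over unlike constructs.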

How the results depend on the processing

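No held gene with an ordinary symbol turned its sign under any alternative, and the one reversal was in the pooled change of Rela, at -0.00913 under quantile normalization (adjusted p = 0.973) and -0.17 without scaling (adjusted p = 0.563). Against 255 called and 91 held genes, normexp background correction gave 77 and 30, and slide as a fixed block, with 5 residual degrees of freedom, gave 69 and 26. A fit of 2 pools with no term for the construct called 78, and a filter for signal above background on all 14 arrays, which leaves 13764 genes, called 163. Counting held genes by sign alone gave 213, and by an adjusted p under 0.05 in all 4 pairings 15. Leaving out each array in turn gave 163 to 336 called and 56 to 146 held genes. The highest counts were without WT replicate 3. Called genes fell to 163 without D361E replicate 2 or 1-361 replicate 1, and to 168 without 362-549 replicate 2. Held genes were 56 without D361E replicate 2, 58 without WT replicate 4 and 60 without 1-361 replicate 2. Higher genes were 32.47% of calls under normexp, 28.21% in the fit of 2 pools and 59.57% in the replicate block. That block, on rounds formed here from runs of consecutive title numbers, called 893 and held 280 with 7 residual degrees of freedom. No arrays share a title number, and the labels do not say that a round marks a shared culture or day. Arrays of different groups in the same round correlated in their deviations from group means at -0.18 to 0.73 (median 0.54, 15 of 19 pairs above 0.1). For pairs in different rounds the range was -0.61 to 0.46 (median -0.15, 10 of 54 above 0.1). For 13 of 14 arrays the closest array of another group was of the same round. Without scaling the median over all genes was -0.17, against 0.05. The causes of these shifts were not tested. Dim probes limit what can be said of Prkd3, Itih1, Hp, Gbp2 and C1s2, which were not well above background on any fragment array, and of Itih3, Pilrb1, Acod1 and Ccl3, which were not on any 362-549 array. Genes dim on every fragment array, and Pilrb1, were kept only through a full-length group, so the filter favoured a fall. B3gnt5, Fer and Cd3g were kept only through a fragment group, so it favoured a rise.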

Other observations

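The 3 arrays of cells given both fragments at once (1-361+362-549) stood outside the comparison, and their levels are given here as values with no test. Among the held falls Nfkbia was 4.31, 3.76 and 4.15 there, within the range of the single-fragment arrays (3.13 to 4.33). Tnfaip3 was -1.18, -1.53 and -2.16, so that 1 array lay in the single-fragment range (-2.48 to -1.74) and the other 2 between it and the full-length arrays (-1.13 to -0.09). Itih3 was -6.43, -6.53 and -5.34, lower than with 1-361 and not well above background on any of the 3. Psen2, in contrast, was 4.29, 4.06 and 4.05, within the range of the full-length arrays (3.40 to 4.59).

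For several held rises the arrays with both fragments read far below the single fragments and also below every full-length array. F13a1 was -6.19, -6.12 and -6.96, Ryk was -7.37, -7.79 and -7.04, Cd3g was -7.18, -7.52 and -6.69, and Gzmc was -3.91, -3.59 and -3.31. Gzmc had 4.87 to 5.99 with the single fragments and 2.08 to 4.93 with the full-length forms. B3gnt5, which starts lacto-series glycolipids, was the other way, at -2.19, -1.53 and -1.64. Among the falls Gpr34 was -6.38, -6.61 and -5.79, lower than with either single fragment. On these arrays Itih3 and Prkd3 read about as low without being well above background. The readings of F13a1, Ryk, Cd3g and Gpr34 there may thus lie at background, and the size of their differences is not given.

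Some called genes with large measured pooled changes did not hold. Nsd1, a histone methyltransferase, was well above background on the 3 arrays of 1-361 and on none of the other 11, and was at least 483-fold higher with 1-361 than with D361E and at least 446-fold higher than with WT. Epb41l3, a membrane skeleton protein gene, was well above background on all 3 arrays of 362-549, on none of 1-361 and on 3 of 8 full-length arrays.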
